A study of Homo sapiens with 12 samples.

Results

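The genes described here are 36 genes of the ATF4 and amino acid stress response, read out in melanoma cells that had become resistant to palbociclib. They were chosen by symbol from a list of ATF4, its partner factors and its known target genes. The rule used no measured value, but the list was chosen with earlier results of these data known. All 36 were listed among the 33932 genes counted for the A375 line, among the 32478 counted for the CHL1 line, and among the 29735 counted in both. They comprise 7 transcription factors and regulators, 5 stress effectors, 8 enzymes of amino acid synthesis and transsulfuration, 3 mitochondrial one-carbon enzymes, 6 amino acid transporters, and 7 genes for tRNA synthetases and tRNA export.

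ATF4 is a transcription factor whose messenger RNA is translated better when the initiation factor eIF2 is phosphorylated, as happens when amino acids run short, when unfolded proteins collect in the endoplasmic reticulum, or when heme is lacking. It pairs with C/EBP proteins on composite sites and switches on genes that make amino acids, carry them into the cell and load them onto tRNAs, along with genes that curb growth or promote death if the stress lasts. In tumour cells, melanoma included, the same genes also serve growth, since they supply serine, asparagine, proline and leucine for protein and nucleotide synthesis.

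Total RNA was sequenced from 4 groups of 3 libraries each with a kit that does not mark strand. The libraries labelled S2, S3 and S4 in each group are called replicates, or numbers, 1, 2 and 3 here, in that order. Resistant A375 (A375AR991) had been grown in rising palbociclib, an inhibitor of the kinases CDK4 and CDK6, for 7 months and was set against parental A375. Resistant CHL1 (CHL1AR991) had been grown in rising palbociclib for 3 months and was set against parental CHL1. Both lines are labelled melanoma, both resistant derivatives were kept in 4 µM palbociclib, all cells grew in supplemented RPMI medium, and the label of 72 h without palbociclib before RNA extraction stands on every sample. The resistant cells of each line are 1 derivative, and the labels say neither whether it is a clone nor whether the 3 libraries of a group came from separate cultures, so a p-value here reflects no more than how far these libraries scatter, and that scatter may be technical. With 1 derivative per line and 7 against 3 months of selection, line, selection time and derivative cannot be told apart in any difference between the lines' responses. A fall in a level can come from fewer cells with the transcript or from less of it per cell, which cannot be told apart in bulk RNA.

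Total counts ran from 25398920 to 29812686 per library, and 3 counts stood for 0.101 to 0.118 CPM (counts scaled to the library total). Levels are given in normalised CPM, set on 1 scale for all 12 libraries, and fold changes are log2 ratios of resistant over parental cells with their standard error (SE). A gene was called higher or lower at a Benjamini-Hochberg adjusted p below 0.05 in the quasi-likelihood test of edgeR. Of the melanoma markers, SOX10 averaged 296 CPM in resistant and 401 CPM in parental A375, the pigment genes PMEL and MLANA were near 1 CPM or below in all groups, and TYR had no count in A375. The 7 melanoma markers together ran from 253 to 394 CPM in resistant A375 and from 415 to 566 CPM in parental A375, so they moved with the comparison in that line. In CHL1 the sums, mostly SOX10, overlapped. Within them, the pigment gene DCT averaged 19.1 CPM in resistant and 44.6 CPM in parental CHL1, and S100B 184 and 114 CPM. The 5 fibroblast markers ran from 28.4 to 36.1 CPM in resistant and from 18.5 to 24.1 CPM in parental A375, and lay lower in resistant CHL1, at 11.6 to 14.0 CPM, than in parental CHL1, at up to 23.0 CPM. Of these, LUM averaged 20.2 CPM in resistant and 6.77 CPM in parental A375, while PDGFRB averaged 3.62 and 8.09 CPM and DCN 0.872 and 1.22 CPM in resistant and parental A375. The 6 epithelial markers reached 475 CPM in A375, mostly KRT18, with overlapping A375 groups. KRT18 averaged 411 CPM in resistant and 317 CPM in parental A375, while KRT14 averaged 4.38 and 22.4 CPM and KRT5 0.012 and 0.94 CPM in resistant and parental A375. The part of these markers in the results was not tested. Markers of leukocytes were led by CD68 at 61.9 and 58.9 CPM in resistant and parental A375, where PTPRC averaged 0.182 and 0.236 CPM. In CHL1 they were led by PTPRC at 9.24 and 9.55 CPM in resistant and parental cells, with CD68 at 1.34 and 1.24 CPM. CD3E was at or near 0 in all groups, and the endothelial markers stayed near or below 1 CPM in sum.

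The letters that ATF4 dimers are known to bind, TGATGNAA on either strand, stood in the promoter windows of 11 of the 32 members that have an entry in the RefSeq promoter table (34.4%). The window runs from 250 bases before to 50 bases after each annotated start, and several genes have more than 1 start. Of all 27305 genes listed there, 4.46% held the motif, and among the 11916 of them tested in A375 3.00% did. A match describes the letters only. In 8 members a match began before the start, though in SLC1A4 its last base is the start itself. They are shown here because their genes cover all 6 roles, with the motif in capitals, from 20 bases before it to 20 bases after it or to the start, on the strand of the gene, in RefSeq's GRCh38.p14.
CEBPG, chr19:33374051-33374098, plus strand: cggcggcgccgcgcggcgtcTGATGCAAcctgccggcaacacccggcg
CHAC1, chr15:40953242-40953289, plus strand: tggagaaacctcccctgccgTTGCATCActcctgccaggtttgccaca
ASNS, chr7:97872449-97872496, minus strand: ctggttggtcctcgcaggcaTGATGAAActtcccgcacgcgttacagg
MTHFD1L, chr6:150866337-150866384, plus strand: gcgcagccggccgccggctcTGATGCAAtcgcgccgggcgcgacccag
SLC1A4, chr2:64989372-64989399, plus strand: tccgcgttcgcggctcccgtTTGCATCA
SLC1A5, chr19:46784884-46784931, minus strand: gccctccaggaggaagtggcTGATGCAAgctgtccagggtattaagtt
AARS1, chr16:70289666-70289713, minus strand: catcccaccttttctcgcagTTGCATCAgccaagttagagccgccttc
GARS1, chr7:30594825-30594872, plus strand: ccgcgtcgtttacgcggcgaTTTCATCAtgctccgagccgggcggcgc

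The core reads TGATGCAA, or its reverse complement TTGCATCA, in 6 of these genes, and TGATGAAA or its reverse complement TTTCATCA in ASNS and GARS1. The other 3 holders, SLC3A2, SLC7A1 and NARS1, had their match after the annotated start. SHMT2, PYCR1, PSPH and NUPR1 had no entry in the table.

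In A375, resistance came with lower levels of most of the genes that changed. Of the 35 members with enough counts to test, 17 were lower in resistant A375, 4 were higher and 14 were not called. Over all 18086 genes tested in that line 28.3% were called, 14.8% lower and 13.4% higher. The median log2 fold change of the members was -0.19, beside -0.00 for all genes tested, and 26 of the 35 values were negative. All 3 resistant libraries lay below all 3 parental ones in 19 members and above them in 4, where 42.8% of all genes showed no overlap in either direction.

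In CHL1 the changes were fewer and smaller. Of 34 members tested, 6 were lower in resistant CHL1, 4 were higher and 24 were not called, beside 21.2% called among all 17219 genes tested, 12.1% lower and 9.11% higher. The members' median was -0.05, beside 0.00 over all genes. All 3 resistant libraries lay below the parental ones in 9 members and above them in 5, and 36.7% of all genes showed no overlap. The share of members called in CHL1 was 29.4%.

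**Figure D1:**
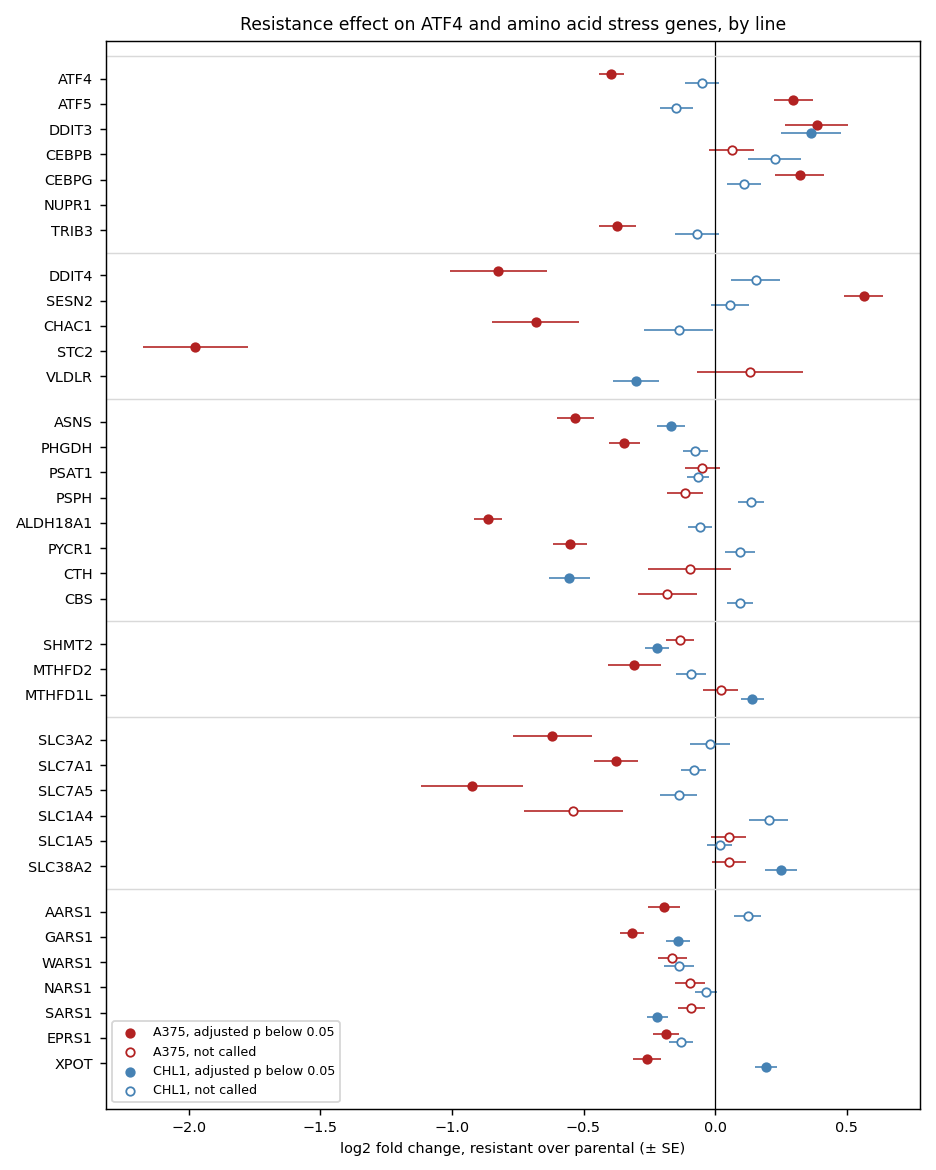
Log2 fold change of resistant over parental cells for each member gene, by line (x axis, points with bars of ± 1 SE), with genes ordered by role from transcription factors at the top to tRNA genes at the bottom; filled points are called by edgeR at an adjusted p below 0.05. STC2 in A375 lies farthest from 0, at -1.98, while all CHL1 points lie between -0.55 and 0.37.

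ATF4 itself had 238, 247 and 236 CPM in resistant A375, against 306, 324 and 317 CPM in parental A375. The 3 resistant libraries lay close together and all below the parental ones. The log2 fold change was -0.39 ± 0.05 (SE, adjusted p = 0.00045 in edgeR), and it kept its call without any 1 library, with adjusted p from 0.00090 to 0.0040. In CHL1, ATF4 had 861, 799.6 and 746 CPM in resistant cells, against 901, 794 and 789.5 CPM in parental cells. These ranges overlapped, and the fold change of -0.05 ± 0.06 was not called (adjusted p = 0.65). The resistance effect on ATF4 was lower in A375 than in CHL1 by a tested difference of -0.35 ± 0.09 (adjusted p = 0.0089). Since ATF4 is set largely at translation and protein stability, these values give its messenger RNA only.

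Of the other factors in A375, 3 rose while ATF4 fell. ATF5, a related factor of the same family, rose by 0.30 ± 0.07 (adjusted p = 0.016), and CEBPG, a C/EBP protein that dimerises with ATF4, by 0.32 ± 0.09 (adjusted p = 0.030). DDIT3, which encodes the death-promoting factor CHOP, averaged 19.8 ± 2.50 CPM in resistant and 15.2 ± 1.57 CPM in parental A375 (SD, n = 3 each), a rise of 0.39 ± 0.12 (adjusted p = 0.040). TRIB3, a pseudokinase that ATF4 and CHOP induce and that dampens ATF4, fell by 0.37 on the log2 scale (SE 0.07, adjusted p = 0.0049), with no overlap of the groups. CEBPB, another dimer partner, stood at 0.06 ± 0.09 and was not called.

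In CHL1, DDIT3 was the only factor called. It averaged 23.0 ± 2.62 CPM in resistant and 17.7 ± 3.02 CPM in parental CHL1 (SD, n = 3 each), with overlapping libraries and a fold change of 0.37 ± 0.12 (adjusted p = 0.042). The tested difference between the lines was 0.02 ± 0.18 for DDIT3 and was not called (adjusted p = 0.97). ATF5 was -0.15 ± 0.06 in CHL1, and its difference between the lines was 0.44 ± 0.10 (adjusted p = 0.0053).

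The calls of these 3 rising factors rested on single libraries. ATF5 missed the threshold without resistant A375 replicate 3 (adjusted p = 0.060). CEBPG missed it without resistant replicate 2, parental replicate 1 or parental replicate 3 (up to 0.089), and DDIT3 in A375 without resistant replicates 2 or 3 or parental replicates 1 or 3 (up to 0.12). In CHL1, DDIT3 missed it without resistant replicates 1 or 3 or parental replicates 2 or 3 (up to 0.14), and in the fit to all 12 libraries. DDIT3 also shares 27.2% of its exon bases with MARS1 on the opposite strand, whose counts were 1625% of those of DDIT3 in A375 and 1048% in CHL1, and ATF5 shares 21.2% with NUP62. Without strand, reads from the shared bases cannot be told apart, and how such reads were counted is not given. MARS1 was not called in either line (-0.09 ± 0.04 in A375 and -0.05 ± 0.04 in CHL1), whereas NUP62 rose by 0.41 ± 0.06 in A375 and was -0.17 ± 0.05 in CHL1, the same directions as ATF5.

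NUPR1, a small stress-induced chromatin protein, had too few counts to be tested. Resistant A375 had 0, 1 and 0 counts, against 9, 21 and 33 counts in parental A375, that is 1 count in all against 63. By depth the parental level was 68.7 times the resistant one, with a 95% exact counting interval from 11.9 to 2757. In CHL1 both groups were near the floor, with 4 and 5 counts in all.

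The stress effectors held the widest range of changes. STC2, a secreted glycoprotein induced under endoplasmic reticulum stress, had 7.76, 9.41 and 8.08 CPM in resistant A375, against 22.9, 40.9 and 35.7 CPM in parental A375. The resistant libraries were all well below the lowest parental one. The fold change was -1.98 ± 0.20 (adjusted p = 0.00017), the widest among the members tested in either line. In CHL1 STC2 had 18 counts in all in resistant and 29 in parental cells, too few for the test. STC2 entered the test of the difference between the lines through its A375 counts alone. It was not called there, and because of the few CHL1 counts that test decides nothing for STC2.

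DDIT4, which encodes the mTORC1 inhibitor REDD1, had 85.6, 115 and 75.0 CPM in resistant A375, against 176, 190.1 and 123 CPM in parental A375. The groups came near each other, the highest resistant library being just under the lowest parental one. The fold change was -0.82 ± 0.18 (adjusted p = 0.010). In CHL1 DDIT4 had 32.4, 29.6 and 26.9 CPM in resistant cells, against 30.2, 23.5 and 25.9 CPM in parental cells, and was not called (0.15 ± 0.09). The difference between the lines, -0.98 ± 0.24 (adjusted p = 0.0073), was the widest called among the members.

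SESN2 went the other way. This sestrin senses leucine and restrains mTORC1, and is known as a target of both ATF4 and p53. It had 25.3, 28.3 and 27.1 CPM in resistant A375, against 18.6, 18.4 and 17.6 CPM in parental A375. The groups lay far apart relative to their spread, with a fold change of 0.56 ± 0.08 (adjusted p = 0.00071), the largest rise among the members. In CHL1 SESN2 had 17.8, 17.3 and 17.7 CPM in resistant and 18.1, 16.4 and 16.1 CPM in parental cells, with a change of 0.06 ± 0.07 that was not called. The difference between the lines was 0.50 ± 0.10 (adjusted p = 0.0019).

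CHAC1, which degrades glutathione and is often read as a marker of ATF4 activity, had 2.16, 2.87 and 2.15 CPM in resistant A375, against 3.50, 4.04 and 4.03 CPM in parental A375. All resistant libraries lay below all parental ones, with a fold change of -0.68 ± 0.17 (adjusted p = 0.015). The call was lost without resistant A375 replicate 1 or replicate 3 (adjusted p up to 0.060). In CHL1 CHAC1 had 2.52, 2.68 and 2.36 CPM in resistant and 2.90, 2.67 and 2.71 CPM in parental cells, and neither that change (-0.14 ± 0.13) nor the difference between the lines (-0.55 ± 0.20, adjusted p = 0.065) was called. VLDLR, a lipoprotein receptor induced through ATF4, fell by 0.30 in CHL1 (SE 0.09, adjusted p = 0.031) and stood at 0.13 ± 0.20 in A375. The VLDLR call was lost without resistant CHL1 replicates 1 or 2 or parental replicates 1 or 2 (up to 0.13), and in the fit to all 12 libraries.

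**Figure D2:**
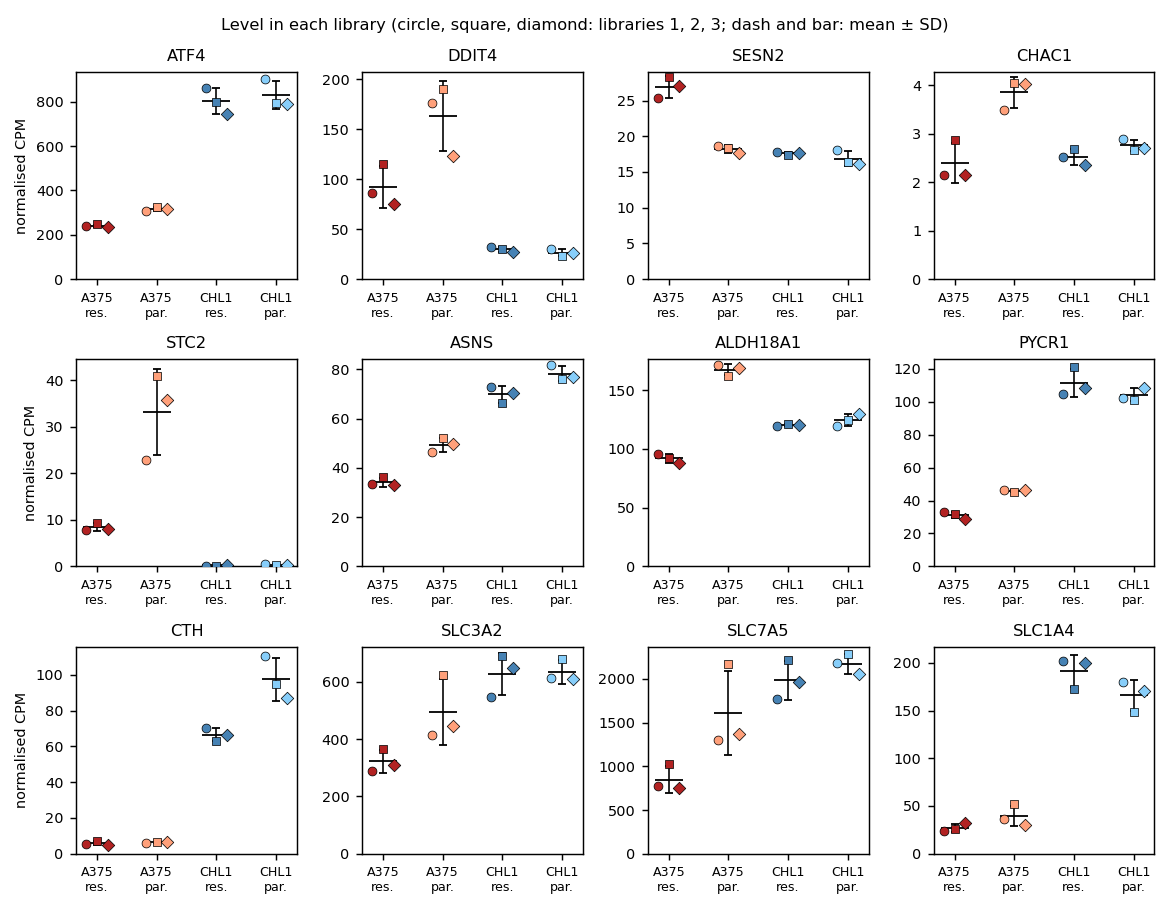
Normalised CPM (y axis from 0, own scale per gene) of 12 member genes in each library, with resistant (res.) left of parental (par.) cells for A375 and CHL1; symbols are single libraries and the dash with its bar is the mean ± SD of 3 libraries. STC2 in A375 runs from 7.76 to 9.41 CPM in resistant and from 22.9 to 40.9 CPM in parental cells, and the CHL1 groups overlap for most of these genes.

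Among the enzymes that make amino acids, 4 of 8 fell in resistant A375 and none rose, and all 8 fold changes were negative. Over all genes tested in A375, 14.8% were called lower and 13.4% higher, with a median of -0.00. ALDH18A1, which makes the first committed intermediate of proline from glutamate, had 95.4, 92.3 and 88.1 CPM in resistant A375, against 171, 162 and 168 CPM in parental A375. The libraries of each group were tight and far apart, with a fold change of -0.86 ± 0.05 (adjusted p = 1.4e-05), the smallest adjusted p of the members. In CHL1 ALDH18A1 had 119, 121 and 120.0 CPM in resistant and 119.6, 125 and 129.7 CPM in parental cells, a change of -0.06 ± 0.04 that was not called. The difference between the lines was -0.81 ± 0.07 (adjusted p = 1.3e-06).

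PYCR1, which carries out the last step of proline synthesis, fell as well. It had 32.8, 32.0 and 29.0 CPM in resistant A375, against 46.2, 44.9 and 46.5 CPM in parental A375, with no overlap and a fold change of -0.55 ± 0.07 (adjusted p = 0.00038). In CHL1 PYCR1 had 105, 121 and 109 CPM in resistant and 102, 101 and 109 CPM in parental cells, and its change of 0.10 ± 0.06 was not called. The difference between the lines was -0.65 ± 0.09 (adjusted p = 0.00012).

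ASNS makes asparagine from aspartate and glutamine and holds the motif shown above. It had 33.3, 36.3 and 32.9 CPM in resistant A375, against 46.5, 52.3 and 49.6 CPM in parental A375. The groups did not overlap, and the fold change was -0.53 ± 0.07 (adjusted p = 0.00068). In CHL1 ASNS had 73.0, 66.4 and 70.3 CPM in resistant cells, against 81.7, 76.3 and 76.9 CPM in parental cells. The CHL1 groups did not overlap either, but the fall was smaller, -0.17 ± 0.05 (adjusted p = 0.044), and the difference between the lines was -0.37 ± 0.09 (adjusted p = 0.0069). The CHL1 call of ASNS was lost without any 1 of 5 libraries (all but resistant replicate 1, adjusted p up to 0.17), under RLE factors and total counts, with DESeq2 and in the fit to all 12 libraries.

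The serine pathway was split. PHGDH, the first enzyme of serine synthesis, fell by 0.35 in A375 (SE 0.06, adjusted p = 0.0027) and was -0.07 ± 0.05 in CHL1. PSAT1 and PSPH, which complete serine, were called in neither line, at -0.05 ± 0.07 and -0.11 ± 0.07 in A375 and -0.06 ± 0.04 and 0.14 ± 0.05 in CHL1. The difference between the lines was called for PHGDH (-0.28, adjusted p = 0.022) and PSPH (-0.26, adjusted p = 0.033) and not for PSAT1. These calls were lost without any of 5 libraries for PHGDH (resistant A375 replicates 2 and 3, resistant CHL1 replicate 2, parental CHL1 replicates 2 and 3) and any of 8 for PSPH (all but resistant A375 replicate 1, parental A375 replicate 2 and resistant CHL1 replicates 1 and 3), with adjusted p up to 0.095 and 0.14.

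Transsulfuration turns homocysteine into cysteine through CBS and CTH. CTH had 70.0, 63.1 and 66.5 CPM in resistant CHL1, against 110.5, 94.9 and 86.8 CPM in parental CHL1. All resistant libraries lay below all parental ones, and the fall of -0.55 ± 0.08 (adjusted p = 0.00039) was the widest among the members in CHL1. In A375 CTH was at a much lower level, with 5.47, 7.15 and 4.92 CPM in resistant and 5.85, 6.64 and 6.30 CPM in parental cells, and was not called (-0.10 ± 0.16). The difference between the lines, 0.46 ± 0.17, missed the threshold (adjusted p = 0.068). CBS was not called in either line.

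In the mitochondrial one-carbon arm, which turns serine into formate, the lines gave different members. SHMT2 fell in CHL1 by 0.22 (SE 0.05, adjusted p = 0.0044) and was -0.13 ± 0.05 in A375 (adjusted p = 0.10). MTHFD1L rose in CHL1 by 0.14 ± 0.05 (adjusted p = 0.042), a call lost without any 1 of 5 libraries (all but resistant replicate 3, adjusted p up to 0.11) and in the fit to all 12 libraries. MTHFD2 was called lower in A375, at -0.31 ± 0.10 (adjusted p = 0.049), but its libraries overlapped. That call was lost without resistant A375 replicates 1 or 3 or parental replicates 2 or 3 (up to 0.17), and under RLE factors, total counts, voom and a filter of 1 CPM. For none of the 3 genes was the difference between the lines called.

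Of the 6 amino acid transporters, 3 fell in resistant A375 (SLC7A5, SLC3A2 and SLC7A1) and 3 were not called, while in CHL1 1 rose and 5 were not called. The shares called were 50% in A375 and 16.7% in CHL1, beside 28.3% and 21.2% of all genes tested. SLC7A5 (LAT1) brings in leucine in exchange for glutamine, and SLC3A2 (CD98) is the heavy chain that holds it in the membrane. SLC7A5 had 771, 1025 and 749.6 CPM in resistant A375, against 1301, 2166 and 1367 CPM in parental A375. Parental replicate 2 stood well above the other parental libraries, and resistant replicate 2 was also the highest of its group, yet the groups did not overlap. The fold change was -0.92 ± 0.20 (adjusted p = 0.0075) and ranged from -1.08 to -0.65 as single libraries were left out, called each time.

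In SLC3A2, too, replicate 2 was the highest library of both A375 groups. It had 289.9, 365 and 311 CPM in resistant A375, against 414, 625 and 446 CPM in parental A375, a fold change of -0.62 ± 0.15 (adjusted p = 0.014). The SLC3A2 call was lost without resistant replicates 1 or 3 (adjusted p up to 0.059). In CHL1 neither chain was called. SLC7A5 had 1768, 2218 and 1962 CPM in resistant and 2182, 2289 and 2059 CPM in parental CHL1 (-0.14 ± 0.07), and SLC3A2 had 546, 689.5 and 649 CPM in resistant and 614, 681 and 608 CPM in parental CHL1 (-0.02 ± 0.08). The CHL1 groups overlapped in both genes.

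The differences between the lines were -0.79 ± 0.23 for SLC7A5 (adjusted p = 0.022) and -0.61 ± 0.19 for SLC3A2 (adjusted p = 0.029). The first was lost without resistant A375 replicates 1 or 3, resistant CHL1 replicate 2 or parental CHL1 replicate 3 (up to 0.064). The second was lost without any of 7 libraries (resistant A375 replicates 1 and 3, parental A375 replicate 2, resistant CHL1 replicates 2 and 3, parental CHL1 replicates 1 and 3), with adjusted p up to 0.076.

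SLC1A4, an exchanger of alanine, serine and cysteine, had values of opposite sign in the lines and was called in neither. It had 23.3, 26.3 and 31.9 CPM in resistant A375, against 36.3, 51.7 and 30.5 CPM in parental A375, which overlap (-0.54 ± 0.19, adjusted p = 0.061). It had 202, 172 and 200.2 CPM in resistant CHL1, against 179.5, 148 and 170.1 CPM in parental CHL1 (0.20 ± 0.07, adjusted p = 0.068). The difference of the effects was called at -0.75 ± 0.22 (adjusted p = 0.021), though not without resistant A375 replicate 1 or parental CHL1 replicate 2 (up to 0.058).

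SLC7A1, the carrier of arginine and lysine, fell in A375 by 0.38 (SE 0.08, adjusted p = 0.0098). Its difference between the lines, -0.30 ± 0.10 (adjusted p = 0.046), was lost without any of 8 libraries (all but resistant A375 replicate 2, parental A375 replicates 1 and 3 and resistant CHL1 replicate 2), with adjusted p up to 0.16. SLC1A5, the glutamine carrier ASCT2, was called in neither line (0.05 ± 0.07 in A375 and 0.02 ± 0.05 in CHL1), although it holds the motif. SLC38A2, the amino acid-responsive carrier SNAT2, rose in CHL1 by 0.25 ± 0.06 (adjusted p = 0.011, and 0.052 without parental replicate 2) and was 0.05 ± 0.06 in A375.

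The tRNA genes changed by small amounts. In A375, 4 of 7 fell and none rose, beside 14.8% of all genes called lower and 13.4% higher. Those that fell were AARS1 (-0.19 ± 0.06), GARS1 (-0.32 ± 0.05) and EPRS1 (-0.19 ± 0.05), which charge the tRNAs for alanine, glycine, and glutamate with proline, and XPOT (-0.26 ± 0.05), which exports tRNAs from the nucleus. In CHL1 SARS1, the seryl-tRNA synthetase, fell by 0.22 (SE 0.04, adjusted p = 0.0025) and GARS1 by 0.14 (SE 0.04, adjusted p = 0.043). XPOT rose in CHL1 by 0.19 ± 0.04 (adjusted p = 0.0060), the only member called in opposite directions in the lines, with a tested difference of -0.46 ± 0.07 (adjusted p = 0.00016). WARS1 and NARS1 were called in neither line.

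GARS1 and XPOT kept their A375 calls without any 1 library. AARS1 lost its call without any 1 of 5 A375 libraries (all but parental replicate 2, adjusted p up to 0.15), EPRS1 without any resistant A375 library or parental replicate 3 (up to 0.088), and GARS1 in CHL1 without any of 5 libraries (all but resistant replicate 1, up to 0.17), under RLE factors and total counts, with DESeq2 and in the fit to all 12 libraries.

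Over both lines, 4 of the 34 members tested in each were called in both, beside 7.72% of all 15975 genes tested in both. DDIT3 rose in both, ASNS and GARS1 fell in both, and XPOT went opposite ways. Of the 16 members called in A375 and not in CHL1, the difference of the effects was called for 11 (ATF4, ATF5, DDIT4, SESN2, PHGDH, ALDH18A1, PYCR1, SLC3A2, SLC7A1, SLC7A5 and AARS1) and not for CEBPG, CHAC1, EPRS1, MTHFD2 and TRIB3. For 6 members called in CHL1 and not in A375 (CTH, MTHFD1L, SARS1, SHMT2, SLC38A2 and VLDLR) no difference was called. In all, the resistance effect was lower in A375 for 13 of 35 members and higher for ATF5 and SESN2, beside 23.6% of all 19241 genes called in that test, 11.9% lower and 11.7% higher.

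The genes with and without the motif did not divide cleanly. In A375, 6 of the 11 motif holders fell, CEBPG rose and 4 were not called, with a median of -0.32. Of the 21 members whose windows lacked the motif, 10 fell, 3 rose and 8 were not called, with a median of -0.18. In CHL1, 2 holders fell (ASNS and GARS1), MTHFD1L rose and 8 were not called. Over all genes tested, 28.3% were called in A375 and 21.2% in CHL1. The holders thus include members that fell in both lines, a member that rose in each line, and SLC1A5, which was called in neither.

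Several members lie in stretches of chromosome whose genes moved together in A375. For each member, the median fold change of the 20 nearest tested protein-coding genes, 10 on each side, was set beside its own, in the gene order of GENCODE 29. The 20 neighbours of ALDH18A1 on chromosome 10 all had negative values, with a median of -0.59, beside -0.86 for ALDH18A1. The 20 neighbours of SLC7A1 on chromosome 13 were likewise all negative, with a median of -0.54, beside -0.38 for SLC7A1. On chromosome 19 the neighbours of CEBPG had a median of 0.37 and those of ATF5 of 0.44, beside 0.32 and 0.30 for the genes themselves.

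SLC1A5 lies on chromosome 19 too. Its 20 neighbours all had values above 0, with a median of 0.47, while SLC1A5 stood at 0.05. In CHL1 the neighbours of SLC1A5 had a median of -0.14. VLDLR on chromosome 9 stood at 0.13 in A375, not called, over 17 neighbours with a median of -0.26. Of the 21 members called in A375, 4 had neighbours with a median of at least 0.2 in the same direction, namely ALDH18A1, SLC7A1, CEBPG and ATF5. The share of all called genes with such neighbours is not given here, so 4 of 21 cannot be read as many or few. Among the members with wide changes, the neighbour medians were 0.01 for STC2, 0.04 for SLC7A5, -0.01 for DDIT4, -0.02 for CHAC1, -0.13 for SLC3A2, 0.05 for PYCR1, -0.02 for ASNS, -0.07 for SESN2 and -0.09 for ATF4. In CHL1 none of the 10 called members had such neighbours. What part the neighbourhood has in any member's change was not tested.

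**Figure D3:**
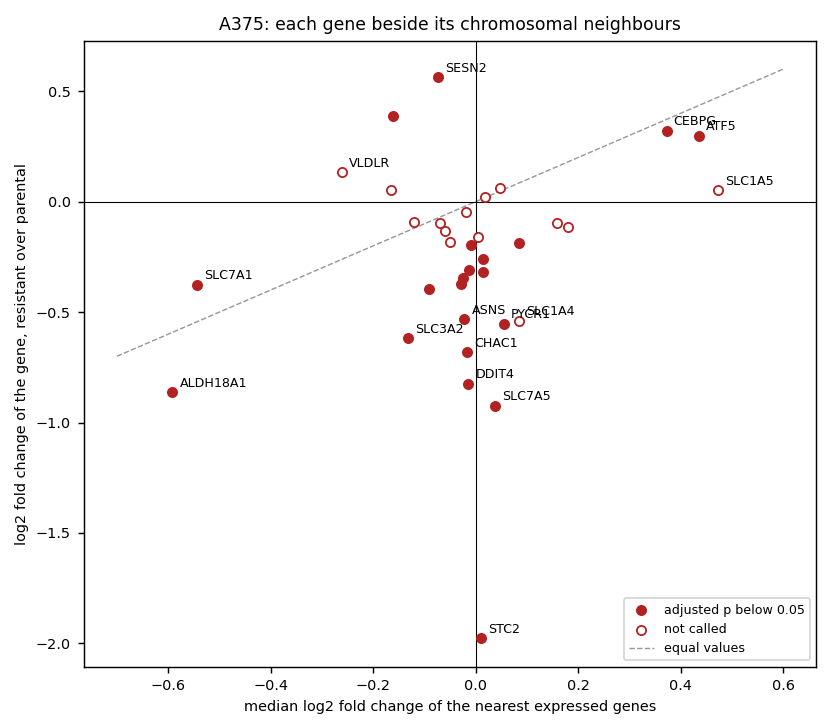
Log2 fold change of each tested member in A375 (y axis) against the median log2 fold change of its nearest tested protein-coding genes, 10 on each side (x axis), with filled points for called members. ALDH18A1 and SLC7A1 at the left and ATF5 and CEBPG at the right lie on the side of their neighbours, SLC1A5 lies at 0.05 over neighbours at 0.47, and the widest fall, STC2 at -1.98, has neighbours at 0.01.

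More members were called between the lines than between the resistant and parental cells of either line. For resistant cells, 12 of 35 members were higher in A375 than in CHL1, 18 lower and 5 not called, beside 76.6% of all genes called, 38.0% higher and 38.6% lower. For parental cells, 15 were higher, 16 lower and 4 not called, beside 75.6%, 38.2% higher and 37.4% lower. The libraries of the lines did not overlap in 13 members higher and 18 lower in resistant A375, and in 15 higher and 14 lower in parental A375, beside 79.2% and 77.2% of all genes in either direction. The shares of members called were 85.7% in resistant and 88.6% in parental cells. These counts and shares include STC2 among the members higher in A375, although it passed the filter on low counts through A375 alone. The counts of the 2 lines stand in separate tables and were normalised together, and anything else that separates the tables cannot be told apart from the lines.

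ATF4 was lower in A375 in both states, at -1.74 ± 0.06 in resistant and -1.39 ± 0.06 in parental cells (log2 of A375 over CHL1). The synthesis enzymes shared that direction. All 8 were lower in resistant A375 than in resistant CHL1, and 7 of 8 in parental cells, ALDH18A1 being the exception. The transsulfuration enzymes stood farthest apart, CTH at -3.50 ± 0.12 in resistant and -3.96 ± 0.12 in parental cells and CBS at -2.93 ± 0.09 and -2.66 ± 0.08. PYCR1 was -1.83 ± 0.07 in resistant and -1.18 ± 0.06 in parental cells.

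Other members were higher in A375 in both states, unlike ATF4. DDIT4 was higher by 1.64 ± 0.17 in resistant and 2.62 ± 0.17 in parental cells, and TRIB3 by 1.80 ± 0.08 and 2.11 ± 0.08. CEBPB was higher by 0.95 ± 0.10 in resistant and 1.12 ± 0.11 in parental cells, SLC38A2 by 1.60 ± 0.07 and 1.80 ± 0.07, and AARS1 by 1.31 ± 0.06 and 1.63 ± 0.06. The transporter SLC1A4 was lower in A375, at -2.82 ± 0.16 in resistant and -2.07 ± 0.16 in parental cells. VLDLR was lower in A375 as well, at -2.001 ± 0.15 in resistant and -2.43 ± 0.15 in parental cells. All these calls had an adjusted p under 0.001 in edgeR. STC2 averaged 8.42 ± 0.877 CPM in resistant A375 and 0.222 ± 0.126 CPM in resistant CHL1, and 33.2 ± 9.22 CPM in parental A375 and 0.357 ± 0.218 CPM in parental CHL1 (SD, n = 3 each). It passed the filter on low counts through A375 alone, so its levels in the 2 lines are a description.

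For 2 members the order of the lines turned. ALDH18A1 was lower in A375 among resistant cells (-0.39 ± 0.05) and higher among parental cells (0.42 ± 0.05), and XPOT likewise (-0.23 ± 0.05 and 0.23 ± 0.05), each called in both states. SESN2 was called higher in resistant A375, at 0.61 ± 0.07, and not called in parental cells, at 0.11 ± 0.07, and the gap between these is the interaction of 0.50 given above. CHAC1 was not called in resistant cells, at -0.07 ± 0.15, and was called higher in parental A375, at 0.48 ± 0.14, a gap that was not called. DDIT3, MTHFD2 and SHMT2 were called in neither state.

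**Figure D4:**
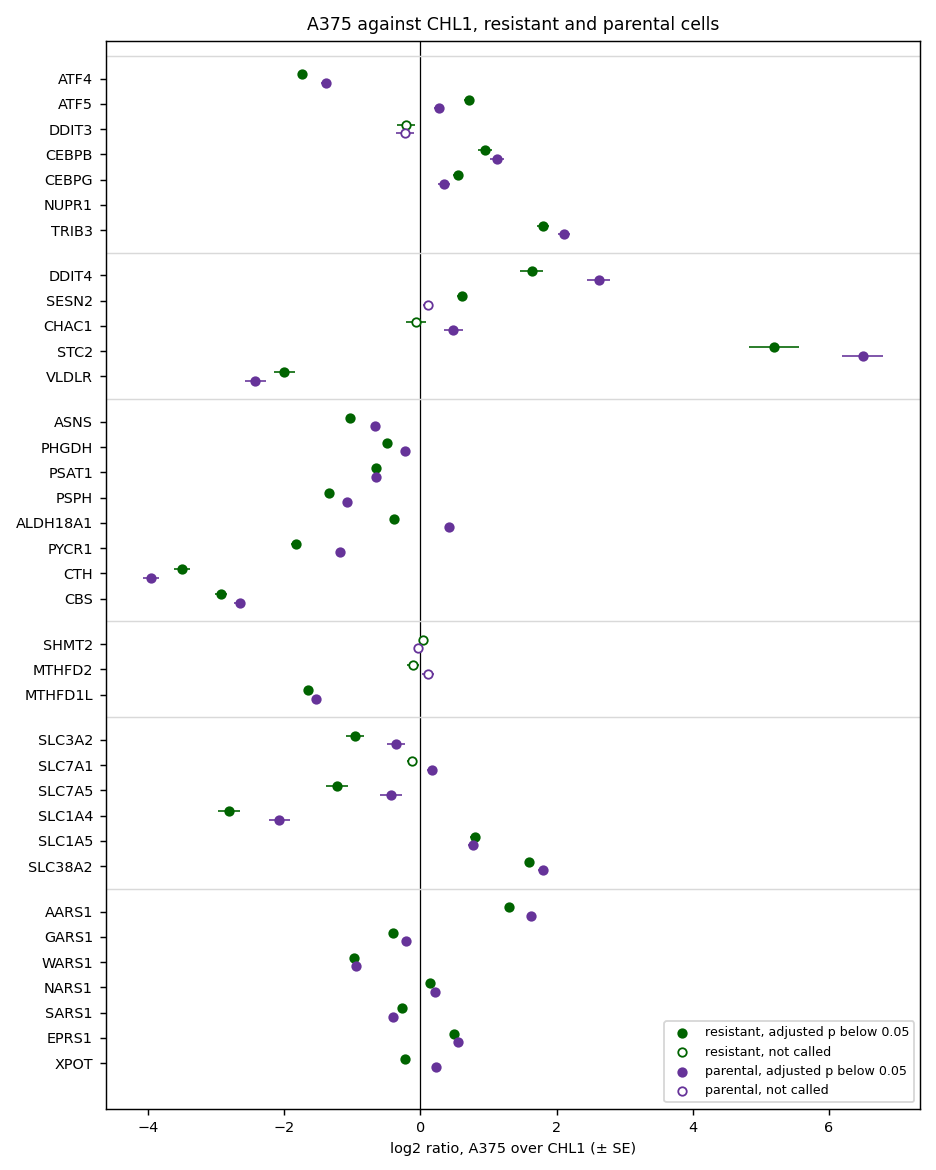
Log2 ratio of A375 over CHL1 for each member gene (x axis, ± 1 SE) in resistant and in parental cells, with genes ordered by role as labelled on the y axis and filled points called by edgeR at an adjusted p below 0.05. CTH lies farthest left, at -3.50 and -3.96, STC2, which has only 18 counts in all in resistant and 29 in parental CHL1, is drawn farthest right, and the synthesis enzymes lie left of 0 except ALDH18A1 in parental cells.

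Other genes of the pathway were called in both directions in both lines, and their counts are to be read beside the 28.3% of all genes called in A375 and the 21.2% called in CHL1. Of 18 genes of the eIF2 machinery, which controls ATF4 translation, 4 fell and 1 rose in each line (27.8% called). The phosphatase subunit PPP1R15B fell by 0.29 in A375 and by 0.23 in CHL1, and the eIF2 subunit EIF2S2 by 0.29 and by 0.14, with SE from 0.04 to 0.06. Of 14 further ATF4 targets tested in A375, 4 fell and 3 rose. The glycine transporter SLC6A9 averaged 2.82 ± 0.455 CPM in resistant and 10.6 ± 2.18 CPM in parental A375 (SD, n = 3 each), a log2 fold change of -1.91 ± 0.19 (adjusted p = 0.00015) over neighbours at -0.01. The aspartate transaminase GOT1 fell by 0.77 (SE 0.07), on a stretch of chromosome 10 with a neighbour median of -0.72. In CHL1, 4 of 13 such targets fell and 1 rose. NIBAN1, a stress-induced regulator of translation, fell by 0.78 there (SE 0.11) and rose by 0.39 ± 0.08 in A375.

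Among the other amino acid enzymes, 5 of 14 fell and 2 rose in A375, and 3 of 16 fell and 2 rose in CHL1. OAT, which links ornithine to proline synthesis, averaged 88.0 ± 0.663 CPM in resistant and 184 ± 7.19 CPM in parental A375 (SD, n = 3 each), a fold change of -1.07 ± 0.05 (adjusted p = 5.2e-06). GLUD1, which interconverts glutamate and its keto acid, fell by 0.59 (SE 0.05). Both lie on chromosome 10, with neighbour medians of -0.55 for OAT and -0.56 for GLUD1. PRODH, which breaks down proline and is counted among those that fell in CHL1, had 0.0498 ± 0.0197 CPM in resistant and 0.900 ± 0.334 CPM in parental CHL1 (SD, n = 3 each). The resistant level was under that of 3 counts per library and PRODH passed the filter through the parental group, so these levels are a description.

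Of the other transporters, 3 of 13 rose and 2 fell in A375. SLC7A8, another light chain of CD98, is counted among those that rose. It averaged 2.07 ± 0.440 CPM in resistant and 0.386 ± 0.120 CPM in parental A375 (SD, n = 3 each). SLC7A8 passed the filter through the resistant group, so these levels are a description. SLC7A2, a carrier of basic amino acids, rose by 0.73 ± 0.09, and SLC1A1, a carrier of glutamate and cysteine, fell by 0.86 (SE 0.12). In CHL1, 3 of 12 fell and 1 rose, with SLC6A15, a carrier of branched-chain amino acids, down by 0.61 (SE 0.06). Of 13 genes of amino acid sensing upstream of mTORC1 tested in A375, 3 rose and 2 fell. The 2 sestrins besides SESN2 rose in A375 with it, SESN1 by 0.63 ± 0.08 (adjusted p = 0.00046) and SESN3 by 1.31 ± 0.26 (adjusted p = 0.0057). In CHL1, 4 of 14 of these fell and 1 rose, with the GTPase RRAGD down by 0.65 (SE 0.07).

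Of 17 other cytosolic tRNA synthetase genes and their scaffold, 5 fell and 1 rose in A375 (35.3% called) and 3 fell and 1 rose in CHL1 (23.5% called). The tyrosyl enzyme YARS1 fell by 0.37 in A375 and by 0.30 in CHL1 (SE 0.06 and 0.04). FARSA fell by 0.42 in A375 and QARS1 by 0.47 in CHL1, each on a stretch whose neighbours had a median of -0.42. Of the 17 mitochondrial synthetases, 4 rose and 1 fell in A375 (29.4% called, median 0.01), and 2 rose and 1 fell in CHL1. Of 10 other folate and glycine enzymes, SHMT1 alone was called in A375 (-0.29 ± 0.07) and MTHFD2L rose in CHL1 (0.40 ± 0.10). Of 12 endoplasmic reticulum chaperones, 1 rose and 2 fell in A375, while 4 rose and 1 fell in CHL1, PDIA4 by 0.34 ± 0.04 and CANX by 0.20 ± 0.04 among those that rose.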

How the data were processed

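The deposited values were whole-number read counts per Ensembl gene, 1 table per line and 6 libraries in each, without normalisation. Per the submitters' processing notes the authors used CASAVA 1.8.2, cutadapt 1.7, TopHat2, HTSeq 0.5 and limma, and the genome build is not given in the sources used here. Per the labels, the TruSeq RNA v2 kit was used on total RNA. Gene names were looked up in a name table and in GENCODE 29, which also gave chromosome order and overlapping exons. ATF4 has pseudogenes and CBS a near-identical copy, so their counts are uncertain to that extent.

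Each line was fitted alone in R 4.3.3 with edgeR 4.0.16 (TMM factors, filterByExpr with a minimum count of 10, quasi-likelihood F-test, two-sided), and p-values were adjusted over all genes tested. The interaction and the line-against-line ratios came from 1 fit to all 12 libraries over genes of both tables. Printed levels are CPM on a 12-library TMM scale. The tests were tried on simulated counts. Counting intervals and floors cover counting error only, because the library kit adds no molecular identifiers and reads can be copies of 1 molecule. Alternatives were other size factors, DESeq2 1.42.0, limma 3.58.1 with voom, other filters, a fold threshold, a replicate block and leaving out libraries.

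Values in every library are given for ATF4 and for members called with an absolute log2 value of at least 0.5 in a line or for the difference, and up to 3 called genes with the smallest adjusted p are eligible per other list and line. The members and lists were chosen with earlier results of these data known. Motifs and neighbours were computed in Python 3.11.15 with pandas 2.3.3. No sequence was taken from the reads.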

Additional observations from a re-analysis of the deposited data

Results flagged for a closer look

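For 15 member genes the effect of resistance differed between the lines by the interaction test of edgeR at an adjusted p below 0.05. Line, months of selection and derivative cannot be told apart in these differences. The values are the log2 fold change of resistant over parental cells in A375 minus that in CHL1. They were negative for DDIT4 (-0.98), ALDH18A1 (-0.81), SLC7A5 (-0.79), SLC1A4 (-0.75), PYCR1 (-0.65), SLC3A2 (-0.61), XPOT (-0.46), ASNS (-0.37) and ATF4 (-0.35). They were also negative, and smaller, for AARS1 (-0.32), SLC7A1 (-0.30), PHGDH (-0.28) and PSPH (-0.26). They were positive for SESN2 (0.50) and ATF5 (0.44). Beside them stand neighbour medians in A375 of -0.59 for ALDH18A1, -0.54 for SLC7A1 and 0.44 for ATF5, whose part in the differences was not tested.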

How the results depend on the processing

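No result changed sign in a called value under any alternative that was run. Of the calls, 13 of 21 in A375, 4 of 10 in CHL1 and 9 of 15 for the difference held under every setting apart from the fold threshold and the pair of libraries left out together, and 27 of 31 and 29 of 30 for parental and resistant A375 over CHL1. The counts for A375 over CHL1 include STC2, which passed the filter through A375 alone. Requiring at least 1.5-fold left 0 members higher and 6 lower in A375 (2581 genes), 0 higher and 0 lower in CHL1 (793 genes), and 0 higher and 6 lower for the difference (2477 genes). For parental A375 over CHL1 it left 7 members higher, against 15 without it. That count covers 1 direction only, and no share of all genes is set beside it. In a fit to all 12 libraries 2 members rose and 3 fell in CHL1. Without both A375 libraries of number 2, an alternative chosen after seeing the data, 2 members rose and 16 fell in A375 (4054 genes called). Without single libraries, 2 to 4 members rose and 13 to 17 fell in A375, 1 to 4 rose and 3 to 7 fell in CHL1, and 2 to 3 were higher and 8 to 15 lower for the difference. With 5 neighbours on each side in place of 10, SHMT2 in CHL1 had neighbours past 0.2 in its direction, 1 member in place of 0. The causes of these shifts were not tested, apart from the fewer libraries or the stricter threshold that the settings themselves bring.

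The labels number the libraries of every group S2, S3 and S4, given here as 1, 2 and 3 in that order. Deviations from the group mean over all tested genes correlated between same-numbered libraries at 0.34, 0.34 and -0.02 in A375 and 0.20, 0.00 and 0.06 in CHL1. Between libraries of other numbers they ran from -0.40 to 0.10 in A375 and from -0.14 to 0.09 in CHL1. Since the same-numbered values were not all over 0.1, the numbers were not taken to pair the samples, and whether they do was not settled. With a replicate block 4 members rose and 19 fell in A375 (6307 genes called), 5 rose and 9 fell in CHL1 (4305 genes), and 4 were higher and 16 lower for the difference (5364 genes). Without the block 5111 genes were called in A375, 3645 in CHL1 and 4536 for the difference. Depth limits NUPR1 in both lines and STC2 in CHL1.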

Other observations

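Part of the members shared the library that was highest in both groups of a line. The library number with the largest share of members is given first for each line. In A375 the library numbered 2 was the highest of its group in both resistant and parental cells for 13 of 35 members (ATF4, DDIT3, CEBPG, DDIT4, CHAC1, STC2, ASNS, CTH, MTHFD2, SLC3A2, SLC7A1, SLC7A5 and SLC1A5), or 37.1%, beside 18.2% of all genes tested. In CHL1 the library numbered 1 was the highest in both groups for 14 of 34 members, or 41.2%, beside 16.4% of all genes tested, with ATF4, DDIT3, CEBPG, DDIT4, ASNS, CTH, MTHFD2 and SLC7A1 among them. For numbers 1 and 3 in A375 the shares of members were 20% and 2.86%, beside 16.3% and 9.85% of all genes. For numbers 2 and 3 in CHL1 they were 8.82% and 2.94%, beside 9.72% and 11.1%. Over the members, deviations from the group mean correlated between same-numbered libraries at 0.61, 0.65 and 0.08 in A375 and 0.69, 0.36 and 0.18 in CHL1. Between libraries of other numbers they ran from -0.77 to 0.35 in A375 and from -0.59 to 0.28 in CHL1. Deviations within a group cancel in sum, so these values depend on one another. These are descriptions across genes of the same libraries, and genes are not independent replicates.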
